A study of Mus musculus with 2 samples.

Results

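The cathepsins described here are 9 protease genes of lysosomes and granules, Ctsa, Ctsb, Ctsc, Ctsd, Ctsh, Ctsk, Ctsl, Ctss and Ctsz, taken by their gene symbols from 23343 gene symbols in all. Cathepsin G, a serine protease of neutrophil primary granules, was not one of the 9. They were chosen by family and not by their values. All 9 had a row in both tables and reads in both libraries.

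Poly(A) RNA was sequenced from native bone marrow eosinophils of untreated C57BL6J mice, sorted as CCR3+ and SiglecF+ cells. The marrow was pooled from a number of animals that the labels do not state, and there were 2 independent sorts with 1 library each, called sort 1 and sort 2 after their titles. Both belong to 1 group, and the labels give no second condition or cell type, so the results below are levels and the agreement of the sorts. The tables held 10087743 reads in sort 1 and 9264150 reads in sort 2. The ribosomal RNA precursor Rn45s took 9.07% of the reads of sort 1 and 0.963% of those of sort 2.

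Cathepsins are made as inactive proenzymes, reach the lysosome mostly by mannose phosphate tags, and become active when the acidic lumen or another protease removes the propeptide. Ctsd is an aspartic protease, Ctsa is a serine carboxypeptidase, and the others are cysteine proteases of the papain type. In granulocytes they act both in lysosomes and in secretory granules, which are related organelles. Lysosomal genes as a class often carry the hexamer CACGTG near their start, the core of the E-box that the factors of the MiT/TFE family bind.

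Promoter sequences are shown for Ctsa and Ctsd, because the tables assign reads to 2 starts of Ctsa and because Ctsd was the most abundant member. RefSeq windows on GRCm38.p6, from 250 bases before to 50 bases after the start, were at hand for 7 of the 9 genes in 8 windows. Ctsb and Ctsh were not among them. CACGTG, which reads the same on both strands, occurred in 3 of the 8 windows, those of Ctsa, Ctsd and Ctsl, against 7.15% of the 32851 windows used. The windows used do not cover every chromosome. At least 2 copies occurred in the windows of Ctsa and Ctsd, against 0.594% of the windows used. The sequences run 5′ to 3′ along the strand of the gene and end 20 bases after the start given in the deposited tables, with CACGTG in capitals.
Ctsa main start, chr2:164833523-164833792, + strand: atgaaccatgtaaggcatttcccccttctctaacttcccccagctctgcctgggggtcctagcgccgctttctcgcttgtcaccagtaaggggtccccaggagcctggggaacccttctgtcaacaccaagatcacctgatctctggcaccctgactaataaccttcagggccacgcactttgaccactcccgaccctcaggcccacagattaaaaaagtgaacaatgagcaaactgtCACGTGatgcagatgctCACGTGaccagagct
Ctsa upstream start, chr2:164832622-164832891, + strand: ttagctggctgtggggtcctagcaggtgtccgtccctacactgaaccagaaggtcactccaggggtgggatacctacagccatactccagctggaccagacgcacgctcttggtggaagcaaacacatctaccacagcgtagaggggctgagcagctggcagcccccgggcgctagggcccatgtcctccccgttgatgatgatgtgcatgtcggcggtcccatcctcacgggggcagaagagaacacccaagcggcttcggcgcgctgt
Ctsd, chr7:142387851-142388077, - strand: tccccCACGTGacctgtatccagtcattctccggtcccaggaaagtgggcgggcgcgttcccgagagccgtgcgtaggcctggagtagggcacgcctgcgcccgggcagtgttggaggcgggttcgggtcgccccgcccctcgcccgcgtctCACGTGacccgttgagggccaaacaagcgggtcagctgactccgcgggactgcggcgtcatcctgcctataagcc

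At the main start of Ctsa the first copy began 12 bases before the start and the second at base 6 of the transcript. The upstream start of Ctsa held no copy. In Ctsd the copies began 245 and 98 bases before the RefSeq start, which is 202 and 55 bases before the start in the deposited tables, 43 bases farther upstream. The single copy of Ctsl began 236 bases before its RefSeq start. This is 450 bases before the start in the deposited tables, which lies 214 bases downstream and outside the window. No copy was found in the windows of Ctsc, Ctsk, Ctss or Ctsz. The longer form TCACGTG, on either strand, which contains CACGTG, occurred in 2 of the 8 windows, the main start of Ctsa and Ctsd, against 3.77% of the windows used. These matches describe letters in a window and do not show that a factor binds there.

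**Figure D1:**
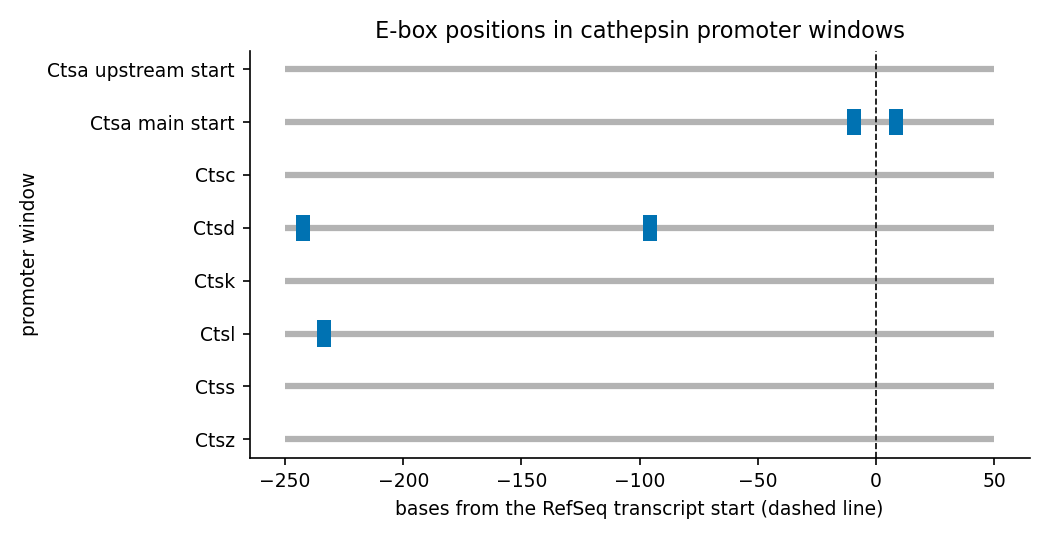
Positions of the E-box core hexamer in the 8 RefSeq promoter windows of 7 cathepsin genes, in bases from the RefSeq transcript start on the horizontal axis. Grey bars are the windows and blue marks the copies, which lie at -12 and 6 in the main start of Ctsa, -245 and -98 in Ctsd and -236 in Ctsl.

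Cathepsin levels in the eosinophils were led by Ctsd and Ctsh, which together made up 90.0% of the RPKM sum of the 9 genes in sort 1 and 90.9% in sort 2. RPKM values are the authors' reads scaled to transcript length and library depth. Comparisons between genes therefore depend on the transcript lengths used, as given below for Neu1 and Ctsa. The 9 genes summed to 332 RPKM in sort 1 and 337 RPKM in sort 2. They took 0.258% of the reads of sort 1 (95% Wilson interval 0.255 to 0.262) and 0.283% of those of sort 2 (0.279 to 0.286), where intervals cover counting error only. Detection was set at 1 RPKM or more in each sort, which 8 of the 9 reached, against 30.2% of all gene symbols. At 0.5 RPKM the count was 8 of 9, against 37.1% of all gene symbols, and at 2 RPKM it was 5 of 9, against 22.1%. Sort 1 alone gave 8 of 9, against 32.2%, and sort 2 alone 8 of 9, against 31.6%. All 9 had at least 1 read in each 1000000 reads of the table in both sorts, against 46.8% of all gene symbols. Their median level was 6.95 RPKM in sort 1 and 4.30 in sort 2, against 0.108 and 0.0896 over all gene symbols and 4.07 and 3.97 over detected ones.

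**Figure D2:**
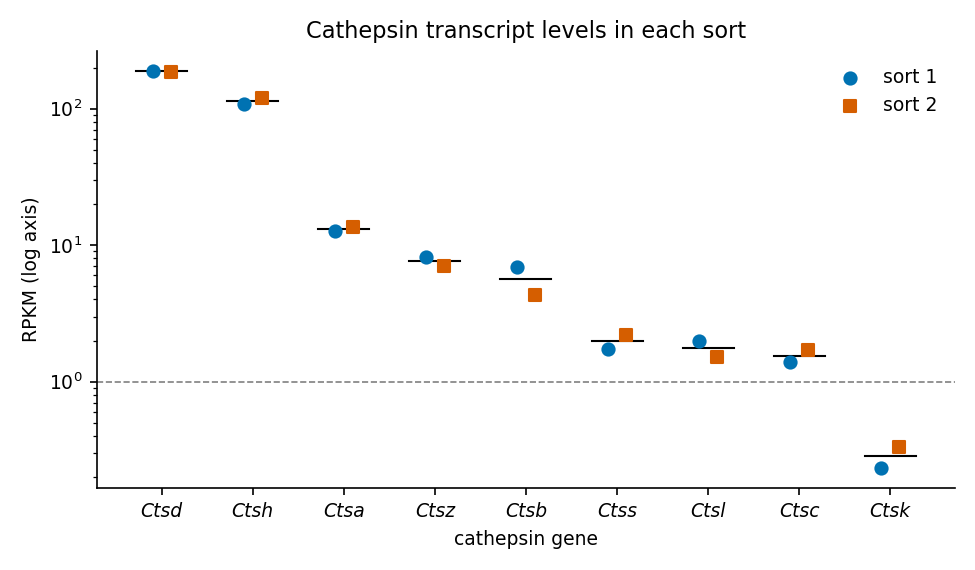
RPKM of each cathepsin gene in sort 1 and sort 2 on a log axis, with black bars at the mean of both sorts and a dashed line at the minimum of 1 for a detected gene. Ctsd at 190 and 187 and Ctsh at 109 and 119 stand above the rest, and Ctsk at 0.233 and 0.332 lies below the line.

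Ctsd, the aspartic endopeptidase that does much of the bulk protein breakdown in lysosomes, had 15025 reads and 190 RPKM in sort 1, and 14860 reads and 187 RPKM in sort 2. Its mean was 189 ± 1.82 RPKM (SD, n = 2), and it ranked 31 of all gene symbols in sort 1 and 35 in sort 2. It alone held 57.2% of the RPKM sum of the 9 genes in sort 1 and 55.5% in sort 2. The gene lies on the - strand of chromosome 7 from 142375916 to 142387870 on mm10, and its transcript has 9 exons in GENCODE M21.

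Ctsh, a cysteine protease that works mainly as an aminopeptidase, had 7159 reads and 109 RPKM in sort 1, and 7866 reads and 119 RPKM in sort 2. With a mean of 114 ± 7.38 RPKM (SD, n = 2) it ranked 69 in sort 1 and 55 in sort 2. It held 32.8% of the summed cathepsin RPKM in sort 1 and 35.4% in sort 2, so the cysteine class was for the most part this one enzyme. The remaining 6 cysteine cathepsins together had 20.5 RPKM in sort 1 and 17.0 in sort 2. Ctsh lies on chromosome 9 from 90054267 to 90076095, + strand, and its transcript has 12 exons.

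Ctsa, the serine carboxypeptidase that also protects lysosomal sialidase and beta-galactosidase from breakdown, came next with 12.6 RPKM in sort 1 and 13.6 RPKM in sort 2. The mean was 13.1 ± 0.701 RPKM (SD, n = 2), and Ctsh exceeded it 8.66-fold in sort 1 and 8.80-fold in sort 2. Both of its partners had lower levels by the deposited RPKM. The sialidase Neu1 had 10.6 and 8.86 RPKM in sorts 1 and 2, and the beta-galactosidase Glb1 had 3.01 and 2.16. For Neu1 this depends on the transcript length used. It had 1650 and 1385 reads on a GENCODE transcript of 2474 bases. Ctsa had 1681 and 1823 reads on 3646 bases, so by reads per kilobase of these lengths Neu1 lay above Ctsa in both sorts.

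The tables gave Ctsa 2 rows, which share their end on chromosome 2 at 164841032, + strand, and start 901 bases apart. The row that starts at 164833773 has 16 exons and had 1681 reads in sort 1 and 1749 in sort 2. The row of the upstream start at 164832872 had 0 of 1681 reads in sort 1, which allows a share of up to 0.178%, and 74 of 1823 in sort 2, or 4.06% (95% Wilson interval 3.25 to 5.07). Nearly all reads were thus assigned to the start with a pair of CACGTG copies shown above. The rows share most exons, so these numbers rest on how the authors' counting split the reads, a step that the labels do not describe.

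Ctsz, a carboxypeptidase also called cathepsin X, had 465 reads and 8.24 RPKM in sort 1, and 394 reads and 6.98 RPKM in sort 2, with a mean of 7.61 ± 0.891 (SD, n = 2). It lies on chromosome 2 from 174427494 to 174438992, - strand, with 6 exons. It overlaps Nelfcd, on the opposite strand, by 9 bases. Ctsc, the dipeptidyl peptidase that removes the activation peptides of granule serine proteases, was far lower, with 139 reads and 1.39 RPKM in sort 1, and 171 reads and 1.70 RPKM in sort 2. Its mean was 1.55 ± 0.223 RPKM (SD, n = 2), and Ctsh, the other aminopeptidase of the group, exceeded it 78.4-fold in sort 1 and 70.1-fold in sort 2. Ctsc lies on chromosome 7 from 88278093 to 88310875, + strand, with 7 exons.

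The broad cysteine endopeptidases were at low to moderate levels. Ctsb, which is also a dipeptidyl carboxypeptidase, had 1335 reads and 6.95 RPKM in sort 1, and 828 reads and 4.30 RPKM in sort 2, with a mean of 5.63 ± 1.87 (SD, n = 2). It lies on chromosome 14 from 63122462 to 63145923, + strand, with 10 exons. Ctsl, a potent endopeptidase that trims the invariant chain in thymic epithelium, had 160 reads and 2.00 RPKM in sort 1, and 121 reads and 1.51 RPKM in sort 2, and it lies on chromosome 13 from 64363214 to 64370306, - strand, with 8 exons. Its mean was 1.76 ± 0.348 RPKM (SD, n = 2). Within the libraries Ctsb exceeded Ctsl 3.47-fold in sort 1 and 2.85-fold in sort 2.

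Ctss, the endopeptidase that removes the invariant chain from MHC class II in antigen-presenting cells, had 94 reads and 1.73 RPKM in sort 1, and 122 reads and 2.21 RPKM in sort 2, with a mean of 1.97 ± 0.343 (SD, n = 2). Its neighbour Ctsk, the collagenase of osteoclasts, had 14 reads and 0.233 RPKM in sort 1, and 20 reads and 0.332 RPKM in sort 2. Both lie on the + strand of chromosome 3, Ctsk from 95499286 to 95509362 and Ctss from 95526786 to 95556405, with 17423 bases between them and 8 exons each. Ctss exceeded Ctsk 7.40-fold in sort 1 and 6.65-fold in sort 2. Ctsk was the single member below the minimum, at a mean of 0.283 ± 0.0701 RPKM (SD, n = 2).

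In order of mean RPKM the genes were Ctsd, Ctsh, Ctsa, Ctsz, Ctsb, Ctss, Ctsl, Ctsc and Ctsk. Of the 8 neighbouring pairs in this order, 6 had values that did not overlap between the genes. The pairs of Ctss with Ctsl and of Ctsl with Ctsc did overlap, so the place of Ctsl between Ctss and Ctsc does not go beyond the spread of the sorts. Ctss and Ctsc came close without overlap, with the lowest Ctss value at 1.73 RPKM in sort 1 and the highest Ctsc value at 1.70 in sort 2. Ctsz and Ctsb were barely apart, with the lowest Ctsz value at 6.98 RPKM in sort 2 and the highest Ctsb value at 6.95 in sort 1. The largest step was from Ctsh to Ctsa.

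Genes nearest to a member in level over the 2 sorts were found by Euclidean distance of log2(RPKM + 1). For Ctsd they were Calm2, a calmodulin gene, at a distance of 0.0313, Ncf1, a subunit of the phagocyte oxidase, at 0.0380, and Itgb2, the leukocyte integrin beta chain, at 0.136. For Ctsb, the member with the median level, they were A430078G23Rik at 0.0177, Atp6v1f, a subunit of the vacuolar proton pump, at 0.0259, and Snora30 at 0.0443. With 2 libraries this describes like levels and nothing more.

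The ratio between the sorts, from scaled reads, was under 1.5-fold for 8 of the 9 cathepsins. Reads were compared by a two-sided exact binomial test with TMM-scaled library sizes, and p-values were adjusted (Benjamini-Hochberg) across the 12347 genes that had 10 or more reads in all. Calls required a 2-fold ratio beside an adjusted p below 0.05. The test compares 2 libraries with sampling noise and not conditions. None of the 9 was called, against 8.41% of all tested genes, of which 5.22% were higher in sort 1 and 3.18% higher in sort 2. At any fold 4 of 9 passed the adjusted p, against 44.4% of all tested genes. Both counts were near the shares of all tested genes, so they do not set the cathepsins apart. Of the 9, 1 was higher in sort 1, against 21.6% of tested genes, and 3 were higher in sort 2, against 22.8%. This split depended on the scaling: 3 were higher in sort 1 and 2 in sort 2 with total counts without Rn45s, and 1 and 5 with total counts. With a ratio of 1.5 in place of 2, Ctsb was called, against 18.3% of tested genes. The exact test of edgeR, with a dispersion estimated from both libraries as 1 group, called 0 of 9 at an adjusted p under 0.05, against 0.267% of all tested genes. It gave 0 of 9 an unadjusted p under 0.05, against 6.20%. Its dispersion takes in any difference between the sorts, so a gene that does not pass is not shown to be alike in both.

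Ctsb had the highest ratio of sort 1 to sort 2, 1.54-fold (95% Clopper-Pearson interval 1.41 to 1.68), with a binomial adjusted p of 1.93e-21 by the exact test and an adjusted p of 1.0 by edgeR. Higher in sort 2 by the binomial adjusted p, at small folds, were Ctsh with a ratio of sort 1 to sort 2 of 0.868 (0.841 to 0.897, adjusted p 9.46e-17), Ctsa with 0.880 (0.823 to 0.940, adjusted p 0.000634) and Ctsd with 0.965 (0.943 to 0.987, adjusted p 0.00579). For Ctsd the ratio lay above 1 when Rn45s was left out of the totals used for scaling, and in the deposited RPKM values, with a log2 ratio of 0.02 in each case.

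Ratios of sort 1 to sort 2 of the other 5 genes did not pass the binomial adjusted p. Ctsl had 1.26 (95% interval 0.990 to 1.61) and Ctsz 1.13 (0.982 to 1.29). Ctsc had 0.775 (0.615 to 0.976), Ctss 0.735 (0.556 to 0.970) and Ctsk 0.668 (0.312 to 1.39). The few reads of Ctsk leave the widest interval of the 9.

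**Figure D3:**
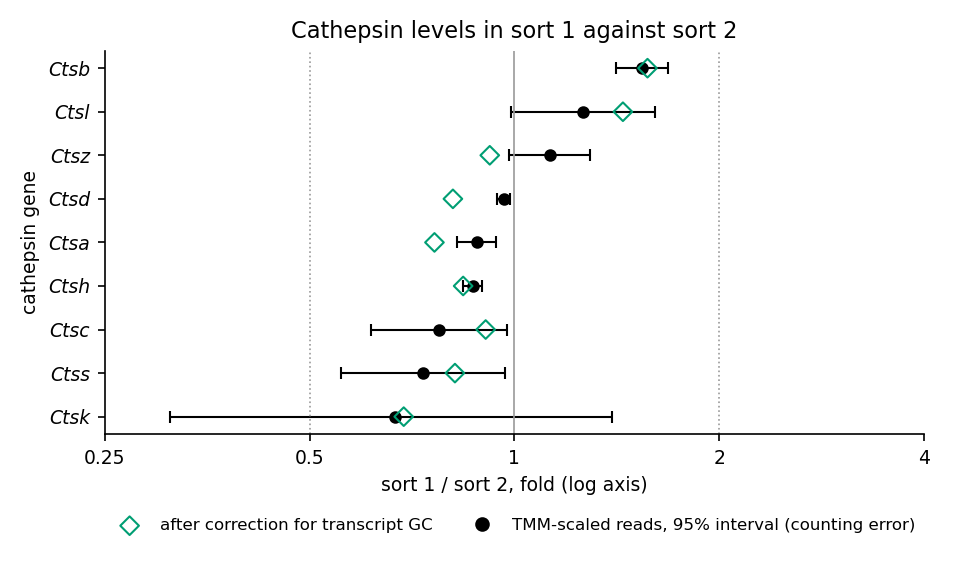
Ratio of sort 1 to sort 2 for each cathepsin gene on a log axis, from TMM-scaled reads with 95% Clopper-Pearson intervals for counting error (black) and after correction for transcript GC content (green diamonds). All 9 black points lie between the dotted lines at 0.5 and 2, with Ctsb highest at 1.54 and Ctsk lowest at 0.668.

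Ratios between these libraries moved with the GC content of transcripts, with a Spearman correlation across 8675 genes of 0.54, given as a description. Correction for this trend left Ctsb at a log2 ratio of sort 1 to sort 2 of 0.65, against 0.62 before. It took Ctsl to 0.53 with an adjusted p of 0.00891, and it turned Ctsz to -0.12 with an adjusted p of 0.366. Ctsd had a log2 ratio of -0.30 after correction, against -0.05 before, at a transcript GC content of 55.9%.

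Markers of several cell types differed between the sorts beside Ctsb. Of 14 tested genes of a list of 15 monocyte and macrophage markers, 5 were called with more in sort 1 and none with more in sort 2. Over all tested genes the shares called were 5.22% and 3.18%. The 5 were Cd163, a scavenger receptor, with 163 and 35 reads in sorts 1 and 2, Fcgr1 with 45 and 10, and the complement genes C1qa with 16 and 0, C1qb with 203 and 90 and C1qc with 195 and 72. By the exact test of edgeR, 1 of these 5 passed, Cd163 with an adjusted p of 0.0485, while the adjusted p was 0.0798 for C1qa, 0.194 for Fcgr1, 0.395 for C1qc and 0.676 for C1qb. After GC correction 4 of the 5 were still called, and C1qb had a log2 ratio of 0.81. The list summed to 86.5 RPKM in sort 1 and 66.2 RPKM in sort 2, with 7 of 15 genes detected, against 30.2% of all gene symbols. It was led by Ly6c2 at 35.6 ± 3.61 and Csf1r at 17.4 ± 3.37 RPKM (SD, n = 2). No defining marker of it was at 0 in both sorts. Neutrophil markers had no call at a 2-fold ratio, but 8 of 12 passed the binomial adjusted p with more in sort 1 and 3 with more in sort 2. Over all tested genes the shares at any fold were 21.6% and 22.8%. Within the neutrophil list, ratios of sort 1 to sort 2 were highest for Ltf (1.68), Ngp (1.60), Cd177 (1.58), Lcn2 (1.52) and Camp (1.51). These encode granule or surface proteins of neutrophils, and Ctsb had 1.54. Cxcr2 had 1.18, S100a9 and Mmp9 had 1.17 and Mmp8 had 1.01. Below 1 were Retnlg, the neutrophil marker with the highest level, at 0.905, S100a8 at 0.944 and Chi3l3 at 0.878. Of 12 eosinophil markers 10 had ratios below 1, as did 6 of 6 precursor markers, while 6180 of 12347 tested genes had ratios above 1. By the binomial adjusted p at any fold, 8 eosinophil markers were higher in sort 2 and 1 in sort 1. Of the precursor markers 5 were higher in sort 2. Ear2 at 0.957 and Prtn3 at 0.985 did not pass, and in deposited RPKM both were higher in sort 1. Cd79a, of 9 tested B and plasma cell markers, was called with more in sort 1, at 133 and 57 reads. So were Cd4 at 57 and 27 reads and Prf1 at 16 and 0, of 7 tested T and NK cell markers. With more in sort 2, Tnfrsf11a was called of 5 tested osteoclast markers, at 2 and 13 reads. So were Col1a1 at 1 and 11 reads and Cxcl12 at 6 and 20, of 4 tested stromal and endothelial markers. After GC correction the log2 ratios of Cd79a and Cd4 were 0.95 and 0.93, below a 2-fold call. Those of Tnfrsf11a, Col1a1 and Cxcl12 were -2.69, -3.87 and -1.77. None of these calls had an adjusted p under 0.05 by the exact test of edgeR. The part of macrophage or neutrophil RNA in the Ctsb level was not tested. In bulk RNA, fewer cells of a type and less RNA per cell cannot be told apart.

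Fdft1 overlaps Ctsb by 774 bases on the opposite strand, and it had 123 reads in sort 1 and 149 in sort 2. Ctsa overlaps Pltp and Neurl2, both on the opposite strand and with at most 1 read per sort. The library kit marks the strand, but the labels do not state whether the counting used it.

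The sorted cells carried the markers of eosinophils, with 12 of 12 detected and sums of 3551 RPKM in sort 1 and 4398 RPKM in sort 2, led by Ear1 at 1347 ± 163 and Prg2 at 1125 ± 303 (SD, n = 2). Over all gene symbols 30.2% were detected, which is the share to set beside the count of each marker list here. Neutrophil markers were also high, with 12 of 12 in the tables detected and sums of 4278 and 4001 RPKM, led by Retnlg and S100a9. Precursor markers had 6 of 6 detected and sums of 345 and 432 RPKM, led by Mpo and Igsf6. Osteoclast markers beside Ctsk had 3 of 10 detected, and of these Itgb3 at 30.7 ± 3.99 and Nfatc1 at 13.8 ± 3.63 RPKM lead. The osteoclast genes Oscar, Dcstamp and Ocstamp had no read in either sort, and Calcr had 0 and 1. Tnfrsf11a, the receptor that drives osteoclast formation, had 2 and 13 reads and was called between the sorts as given above. The osteoclast list summed to 52.5 RPKM in sort 1 and 41.9 in sort 2, and its part in the Ctsk level was not tested. Other lists were low, with sums of 28 and 32.3 RPKM for basophil and mast cell markers (Cpa3 and Hdc), 11.4 and 11.8 for T and NK cells (Nkg7 and Cd4), 11.0 and 7.89 for B and plasma cells (Cd79b and Cd79a), 7.46 and 6.64 for dendritic cells (H2-Ab1 and Bst2) and 11.0 and 10.3 for stromal and endothelial cells (Pecam1 and Pdgfrb). Neutrophils and monocytes also express cathepsins, and their part in the levels above was not tested.

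Of 14 other proteases of the cathepsin type, cathepsin G apart, 3 were detected, against 30.2% of all gene symbols. Ctse, an aspartic protease of immune cells and the gut, had 1633 reads and 19.0 RPKM in sort 1, and 1505 reads and 17.5 RPKM in sort 2. That exceeds 7 of the 9 cathepsins, and Ctsd exceeded it 9.98-fold in sort 1 and 10.7-fold in sort 2. Napsa, the aspartic protease napsin A, had 11.9 and 7.69 RPKM in sorts 1 and 2, and Ctso, a cysteine cathepsin, 2.38 and 2.83. Ctsw, known from cytotoxic lymphocytes, had 12 and 5 reads. The 9 genes of the list with no read in either sort were Ctsj, Ctsm, Ctsq, Ctsr, Cts3, Cts6, Cts7, Cts8 and Ctsll3, relatives of Ctsl that mice express in the placenta.

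The list of cystatins and other protease inhibitors was headed by Cst3, the secreted cystatin C, with 45.9 RPKM in sort 1 and 41.9 RPKM in sort 2. Cst3 stood at 0.421 of the Ctsh level in sort 1 and 0.351 in sort 2. Next came Stfa2l1, a stefin, at 9.03 ± 1.49 RPKM, the cytosolic inhibitor Cstb at 6.72 ± 1.34 and Cst7, a cystatin that enters granules, at 5.45 ± 0.859 (SD, n = 2). Of 19 inhibitors 6 were detected, among them the serpins Serpinb1a and Serpinb6a, against 30.2% of all gene symbols. The list medians were 0.360 RPKM in sort 1 and 0.179 in sort 2. The stefin genes are close paralogs whose reads the counting could split, so their single levels are uncertain. Of 12 tested, 1 was called in each direction by the binomial test, both at few reads. Over all tested genes 5.22% were called with more in sort 1 and 3.18% with more in sort 2. Stfa2 had 16 reads in sort 1 and 0 in sort 2, at least 5.09-fold higher against a limit of 3 reads per library, and Serpinb9 had 3 and 16 reads. The exact test of edgeR gave an adjusted p of 0.0798 for Stfa2 and 0.543 for Serpinb9.

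Of 11 granule serine proteases of the kind that Ctsc activates, 4 were detected, all above Ctsc in level, and 3 of these are also precursor markers. Over all gene symbols 30.2% were detected. Elane, neutrophil elastase, had 66.9 RPKM in sort 1 and 87.7 RPKM in sort 2, which is 48.2 and 51.5 times the Ctsc level in the same libraries. Ctsg had 15 and 20.1 RPKM, Prtn3 7.33 and 7.08, and the basophil protease Mcpt8 3.98 and 4.29. The mast cell proteases Mcpt4, Tpsb2 and Tpsab1 had no read in either sort. The ratios of sort 1 to sort 2 were 0.725 for Elane, 0.710 for Ctsg, 0.985 for Prtn3 and 0.882 for Mcpt8. Of the 5 tested members of this list none was called between the sorts, against 8.41% of all tested genes.

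MHC class II genes, whose loading Ctss serves in antigen-presenting cells, were low. Of 10 genes 4 were detected, against 30.2% of all gene symbols. These were H2-Oa at 8.05 and 6.34 RPKM in sorts 1 and 2, the invariant chain Cd74 at 4.22 and 4.14, H2-Ab1 at 1.66 and 2.06 and H2-Aa at 1.5 and 1.17. None of the 9 tested was called, against 8.41% of all tested genes.

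The list of sorting to lysosomes, which also holds lysosomal membrane proteins, had 13 of 14 genes detected, against 30.2% of all gene symbols. Its medians were 4.83 RPKM in sort 1 and 4.39 in sort 2. Laptm5, a lysosomal membrane protein of blood cells, led with 163 and 111 RPKM. It was followed by Psap, the saposin precursor, at 13.6 ± 0.109, M6pr, the small mannose phosphate receptor, at 11.0 ± 0.812, and Sort1, sortilin, at 8.70 ± 0.722 (SD, n = 2). Gga1, a coat adaptor, was the 1 of 14 called, against 8.41% of all tested genes. It had 251 reads in sort 1 and 112 in sort 2, a 2.14-fold ratio. Its adjusted p was 6.23e-11 by the binomial test and 0.676 by the exact test of edgeR. After GC correction its log2 ratio was 0.65, below a 2-fold call.

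Factors of the MiT/TFE family, which bind CACGTG in lysosomal promoters, were expressed at low levels. Tfeb had 3.76 RPKM in sort 1 and 2.5 in sort 2, Tfe3 1.29 and 1.20, Tfec 0.819 and 1.22, and Mitf 0.333 and 0.327. So 2 of 4 were detected, against 30.2% of all gene symbols. None of the 4 was called, against 8.41% of all tested genes. Of 7 processing enzymes and partners 6 were detected, with Neu1 and Glb1 as given for Ctsa, the tripeptidyl peptidase Tpp1 at 7.48 ± 0.286 RPKM and the asparaginyl endopeptidase Lgmn, which cleaves cathepsin chains, at 3.69 ± 0.407 (SD, n = 2). None of the 6 tested genes of this list was called, against the same 8.41%.

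Among other lysosomal hydrolases, Man2b1 stood far above the rest. Of 24 genes 20 were detected, against 30.2% of all gene symbols, with medians of 3.73 RPKM in sort 1 and 3.71 in sort 2. None of the 24 tested was called, against 8.41% of all tested genes. Man2b1, the lysosomal alpha-mannosidase, had 159 and 148 RPKM, and Ctsd exceeded it 1.20-fold in sort 1 and 1.27-fold in sort 2. Below it lay the sulfatase Arsb at 24.4 ± 6.34 and acid ceramidase, Asah1, at 14.0 ± 0.493 RPKM (SD, n = 2). Lysosomal membrane and proton pump genes were detected in 14 of 16 cases, against 30.2% of all gene symbols. Their median levels were 7.08 RPKM in sort 1 and 5.59 in sort 2. The highest were Atp6ap1 at 41.7 ± 1.17, Lamp1 at 38.2 ± 5.51, Cd63 at 38.0 ± 12.9 and Lamp2 at 26.6 ± 5.23 (SD, n = 2). The pump subunit Atp6v0c was the 1 called of 15 tested, against 8.41% of all tested genes. It had 63 and 29 reads in sorts 1 and 2, a 2.07-fold ratio. Its adjusted p was 0.00373 by the binomial test and 0.891 by the exact test of edgeR. After GC correction its log2 ratio was 0.80, also below a 2-fold call.

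**Figure D4:**
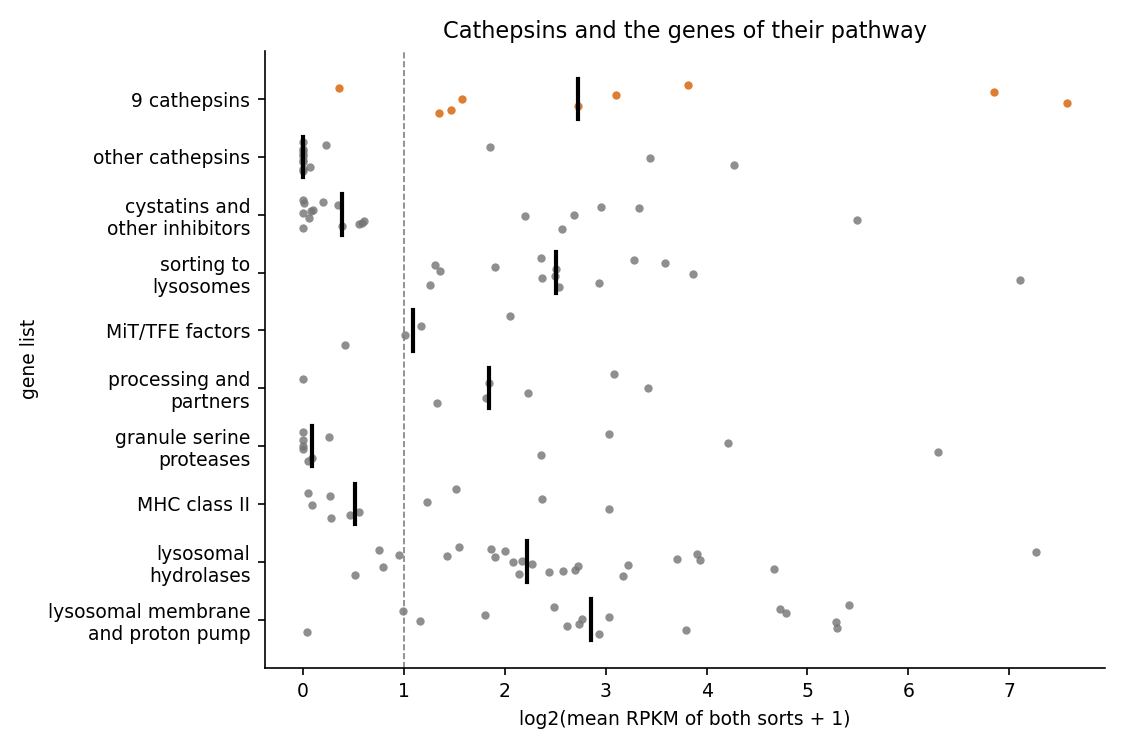
Level of each gene as log2(mean RPKM of both sorts + 1) for the 9 cathepsins (orange) and 9 lists of their pathway (grey), with black bars at the list medians and a dashed line at a mean of 1 RPKM. Ctsd at 189 and Ctsh at 114 RPKM are the rightmost cathepsins, and Man2b1 at 153 and Laptm5 at 137 lead the hydrolase and sorting lists.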

How the data were processed

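Stranded poly(A) dUTP libraries of 2 sorts were analysed, per the labels' protocols. Reads were aligned with STAR 2.4.0c to mm10, per the submitters' processing notes. The deposited tables give read counts and RPKM values by the authors, 1 row per set of RefSeq transcripts that begin and end alike. The sources used here do not name the counting program, its filters or its use of strand. Counts summed to 25.0% of the depth that the RPKM values imply in sort 1 and 22.9% in sort 2, so deposited RPKM values are lower than ones computed from the tables' totals. Each table had 26099 rows, and counts and RPKM were summed per gene symbol.

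Scaling was by TMM (edgeR 4.0.16, R 4.3.3), and the exact binomial test used scipy 1.17.1, with fold ratios of sort 1 to sort 2. The quasi-likelihood test of edgeR cannot be used with 1 library per sort. The exact test of edgeR, DESeq2 1.42.0 size factors and other settings were alternatives. The test script was checked on simulated counts. GC content and exon numbers came from GENCODE M21 transcripts matched by RefSeq accession, available for 97.6% of genes and all 9 cathepsins. The trend was a lowess fit over genes with at least 100 reads. Promoters are those of RefSeq.

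The members and all 20 gene lists were chosen with earlier results of these data known. Named genes were the 9 cathepsins, the 4 highest genes of each pathway list with every called one, the 2 highest of each marker list, and the 3 genes nearest in level to 2 members. Of the genes so chosen, 1 is not reported here. Others named, such as genes without reads, were chosen after their values were seen. The sorts are named as independent, but the labels do not say whether they shared animals, so p-values measure only how far 2 libraries lie apart beyond counting error, which may be technical.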

Additional observations from a re-analysis of the deposited data

How the results depend on the processing

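The count of detected cathepsins was 8 with a minimum of 1 RPKM, and 5 with a minimum of 2, where Ctsc, Ctsl, Ctss and Ctsk fell below. It was 8 from either sort alone. Cathepsins called between the sorts were 0, and 1, Ctsb, at a fold of at least 1.5. Genes called over the whole table were 1038, and 526 with at least 50 reads, 2264 at a fold of at least 1.5 and 33 by the exact test of edgeR. The log2 ratio of sort 1 to sort 2 of Ctsd changed sign to 0.02 with totals without Rn45s and to 0.02 in the deposited RPKM values, and that of Ctsz to -0.12 after GC correction. Levels computed with the tables' own totals as depth were higher for all 9, with Ctsd at 790 RPKM in the mean and Ctsk at 0.934 RPKM in sort 1 and 1.45 in sort 2, so that Ctsk stayed below the minimum in sort 1. Of 36 pairs in the order of levels, 36 were kept with counts per kilobase and 35 with either sort alone. Leaving out a sort allows no test between sorts. No paired analysis was possible because both libraries belong to 1 group. Other minimums for detection moved the detected count of a gene list by over 1.5 times in 12 of 57 cases. Depth limits Ctsk, with 14 and 20 reads.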
